A study of Homo sapiens with 372 samples.

Results

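The 10 genes described here encode the MCM helicase (MCM2 to MCM7), the origin factors CDC6, CDT1 and GMNN, and PCNA. They were chosen by gene symbol, and all 10 were found among the 9664 genes for which expression was given. All 10 also passed the detection limit, over 30% of cells in any 1 condition, that left 9655 genes to compare. Single A2780 cells, an established human ovarian cancer line, were captured on the Fluidigm C1 chip and profiled with Smart-seq2, which copies polyA-tailed RNA over its full length. The 6 conditions were untreated control cells (Ctrl, 46 cells), 5 nM paclitaxel given for 16 h (Pac16h, 56 cells) or 48 h (Pac48h, 53 cells), 75 µM celecoxib given for 2 h (Cele2h, 63 cells) or 16 h (cele16h, 61 cells), and both drugs together at these doses for 16 h (PacCele16h, 59 cells), 338 of 372 labelled cells in all. Paclitaxel stabilizes microtubules, and celecoxib inhibits cyclooxygenase enzymes. No allele or transgene is named in any condition, and the control cells are given no time point.

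Expression was measured as the E-value, log2(N/10 + 1), with N the TPM of a gene divided by the relative level of 1 spike-in RNA in that cell, the most abundant one, its TPM there over its mean TPM in all cells. TPM is per transcript length, so that levels can be set side by side between genes. Each condition was 1 capture run, no culture is named as a replicate, and cells are not replicates of a condition. No test between conditions, p-value or standard error was therefore made, the SDs below are spreads over cells, and a gene was counted as higher or lower past the limit when its mean E-value differed by over 0.58, the log2 of 1.5. How many reads each cell had is not given in the sources used here, so depth is described by the genes detected. The median number of genes detected lay between 6125 and 6630 per cell in the 6 conditions. The authors measured transcriptomic abundance mainly as reads of endogenous mRNAs over reads of spike-ins, which is another measure than the one used here. Here N summed over the listed genes is called abundance. Its median was between 0.348 and 0.643 times the control median in the conditions with 1 drug and 1.40 times in PacCele16h. For that reason each difference was also computed with all cells brought to 1 common total, called the same total below. Of the 8 markers fixed for the line, KRT18 and VIM were listed, and of 5 markers of other cell types LYZ was listed. LYZ had low mean E-values of 0.11 to 0.24 but was detected in 37.0% to 60.7% of cells. That was a larger share than for KRT18 in every condition, while VIM was detected in 62.5% to 86.8%. The keratins KRT8 and KRT19, EPCAM and PAX8 were not among the genes compared, so of the epithelial markers KRT18 alone was measured, detected in 23.9% to 36.5% of cells.

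Before S phase, the origin recognition complex, CDC6 and CDT1 load MCM2 to MCM7 as a ring onto each replication origin, a step called licensing. Once S phase starts, the ring is activated as the replicative helicase by CDC45 and the GINS complex, while geminin, the product of GMNN, binds CDT1 and blocks a further round of loading. PCNA is the sliding clamp that tethers DNA polymerases to the template. Transcription of most of these genes is known to rise at the transition from G1 to S phase under E2F factors.

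The starts of these genes share short E2F-type words, which are shown because the rule that chose the genes did not use sequence. From the RefSeq table on GRCh38, 12 windows were used, from 250 bases before to 50 bases after a start. They covered 8 of the genes, all but MCM4 and MCM5. The words TTTGGCGC, TTTCCCGC, TTTGCCGC and TTTCGCGC were searched on both strands. They occurred in 8 of the 12 windows, at least 1 for each of the 8 genes, and in 3.31% of the 35116 windows of the same length. The shorter CCAAT word was found in windows of 6 of the 8 genes against 34.6% of all windows, and TTTGAA, the core of the CHR element, in none of them against 15.2% of all windows. The stretches around the E2F-type matches read as follows, 5′ to 3′ on the strand of the gene, with the matches in capitals, of which those in MCM2 and MCM6 overlap in pairs.
MCM2, chr3:127598388-127598430, plus strand: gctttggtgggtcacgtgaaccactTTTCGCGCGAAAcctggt
MCM3, chr6:52284884-52284941, minus strand: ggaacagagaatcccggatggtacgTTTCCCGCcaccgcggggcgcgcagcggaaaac
MCM3, chr6:52284728-52284757, minus strand: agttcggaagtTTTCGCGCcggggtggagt
MCM6, chr2:135876497-135876620, minus strand: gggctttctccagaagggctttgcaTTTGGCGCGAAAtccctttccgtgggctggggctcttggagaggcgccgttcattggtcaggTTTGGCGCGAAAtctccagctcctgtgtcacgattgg
MCM7, chr7:100101566-100101595, minus strand: cagctcggaccGCGGGAAAcccggcgcctg
MCM7, chr7:100101388-100101417, minus strand: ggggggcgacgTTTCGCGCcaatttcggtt
CDC6, chr17:40287861-40287898, plus strand: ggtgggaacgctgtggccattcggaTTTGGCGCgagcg
CDT1, chr16:88803729-88803786, plus strand: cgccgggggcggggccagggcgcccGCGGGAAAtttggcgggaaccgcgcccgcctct
GMNN, chr6:24775308-24775365, plus strand: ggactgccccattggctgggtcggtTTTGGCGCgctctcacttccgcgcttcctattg
PCNA, chr20:5126649-5126706, minus strand: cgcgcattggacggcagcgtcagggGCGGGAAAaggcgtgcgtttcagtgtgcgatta
The matches began between 187 bases before and 8 bases after the start. A match is only a run of letters, and no binding was measured in these cells.

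On hg38, the genome of the authors' transcripts, GENCODE version 44 places MCM2 at chr3:127598410-127622436, MCM3 at chr6:52264014-52284881, MCM5 at chr22:35400134-35425431, MCM6 at chr2:135839626-135876443 and MCM7 at chr7:100092233-100101940. CDC6 lies at chr17:40287879-40304657, CDT1 at chr16:88803789-88809258, GMNN at chr6:24774931-24786099 and PCNA at chr20:5114953-5126626. The position of MCM4 is not given here. MCM7 shares 392 of its 4960 exon bases with AP4M1 on the opposite strand, and MCM2 shares 1113 of 4715 with a long noncoding RNA on the opposite strand. Smart-seq2 does not mark the strand, so reads in those bases cannot be told apart. PCNA has 3 pseudogene copies in GENCODE, PCNAP1, PCNAP3 and PCNAP4, none of them among the genes listed here, and reads of PCNA could be split with them.

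In control cells the 10 genes differed widely in level. PCNA had a mean E-value of 5.49 ± 1.28 (SD over 46 cells), GMNN of 5.00 ± 1.29 and MCM7 of 4.74 ± 1.34, and each of these was detected in 97.8% of the cells. MCM6, MCM4 and MCM3 followed at 2.98 ± 1.33, 2.86 ± 1.34 and 2.79 ± 1.63. MCM2, CDC6 and MCM5 were at 2.07 ± 1.17, 2.03 ± 1.24 and 1.91 ± 1.31, and CDT1 was the lowest of the 10 at 0.75 ± 1.03. The helicase is a ring with 1 copy of each of its 6 subunits, but their RNAs were not equal: MCM7 made up 48.1% of the summed mean N of MCM2 to MCM7 in control cells, and MCM5 6.03%. The share of MCM7 was between 31.5% and 44.3% in the treated conditions, lowest in PacCele16h.

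Across the conditions, the order of the mean E-values was much alike for the 10 genes. Control cells had the highest mean for 7 genes and the next highest for 3, and cele16h cells had the lowest mean for 9 genes. CDT1 was the exception, lowest in Pac16h (0.37 ± 0.64) and next lowest in cele16h (0.39 ± 0.70). The combination had the highest mean for MCM5, MCM6 and CDT1. In none of the 50 steps between neighbouring conditions in these orders did the gap exceed 1 SD over the cells of the lower condition, so that neighbours were not separated beyond the spread of their cells.

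**Figure D1:**
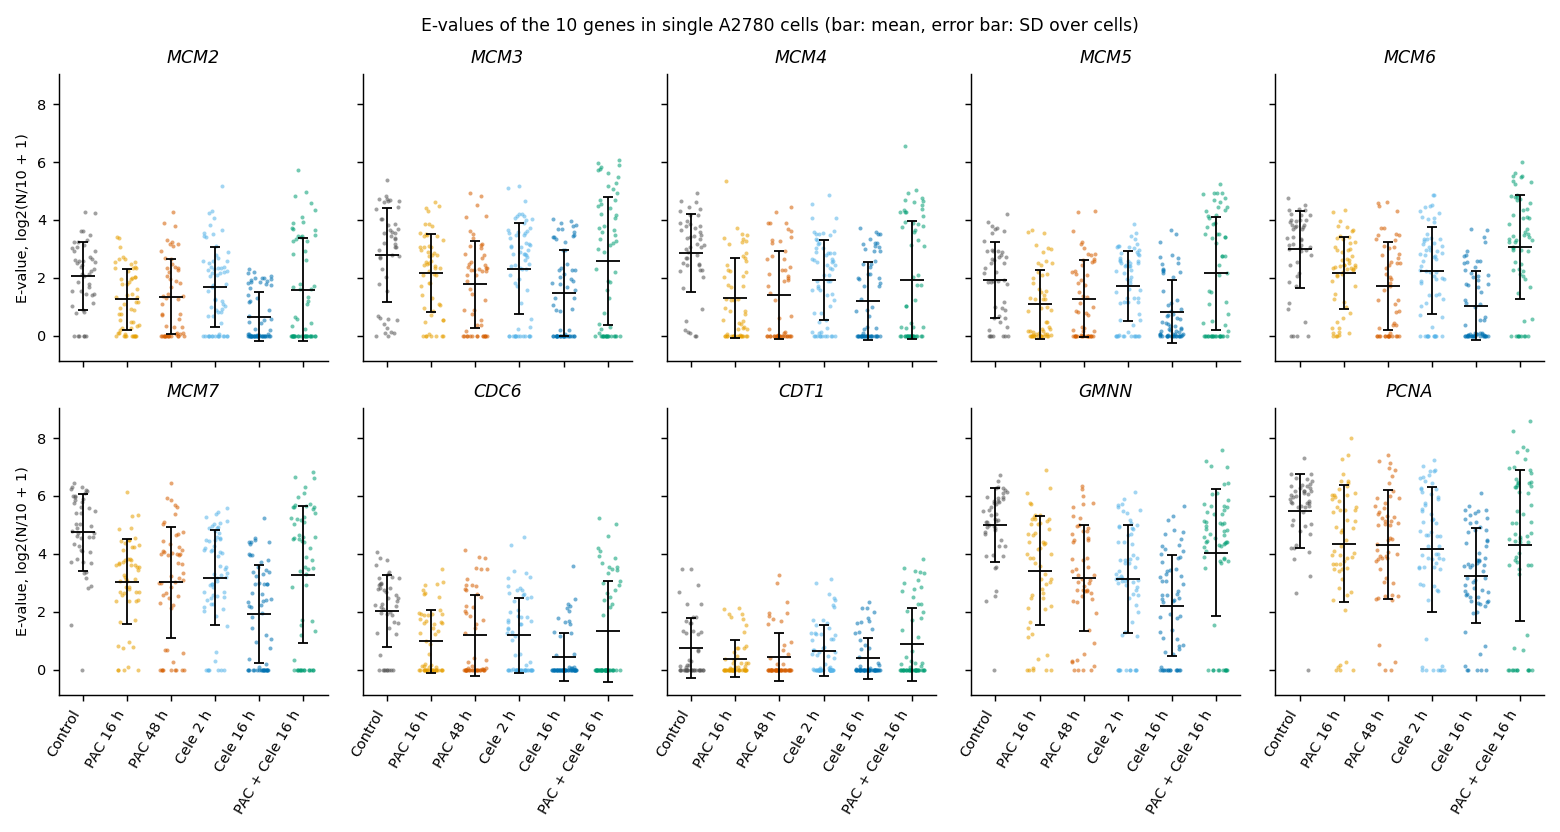
E-values of the 10 genes (y axis, log2 scale) in every cell of the 6 conditions (x axis, PAC for paclitaxel and Cele for celecoxib), with 1 point for a cell, a bar for the mean and an error bar of 1 SD over cells. The mean of MCM7 lies at 4.74 in control cells and at 1.93 in cele16h, and in PacCele16h the points reach from 0 to above those of control cells for all genes shown.

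MCM7 showed the widest drop of the helicase subunits. Its mean E-value was 4.74 in control cells, 3.04 ± 1.48 and 3.01 ± 1.91 in Pac16h and Pac48h, 3.18 ± 1.63 and 1.93 ± 1.69 in Cele2h and cele16h, and 3.28 ± 2.37 in PacCele16h. All 5 treated means were thus below the control mean by more than the limit, and cells of every condition overlapped, from a lowest value of 0 to highest values between 5.25 and 6.83. The median cell was at 4.85 in control, 3.25 and 3.22 in Pac16h and Pac48h, 3.30 and 2.20 in Cele2h and cele16h, and 3.89 in PacCele16h. On the linear scale its mean N was 353 in control cells and 60.5 in cele16h, 5.83 times lower. MCM4 was likewise below the control mean past the limit in all 5 treated conditions, at 1.30 ± 1.37, 1.41 ± 1.53, 1.93 ± 1.39, 1.20 ± 1.35 and 1.93 ± 2.03 in the same order.

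The other helicase subunits depended more on the treatment. MCM6 was at 2.16 ± 1.24 and 1.71 ± 1.53 with paclitaxel, 2.24 ± 1.5 and 1.04 ± 1.20 with celecoxib and 3.07 ± 1.79 in PacCele16h, which was 0.09 above its control mean. MCM3 was at 2.18 ± 1.35, 1.77 ± 1.49, 2.32 ± 1.58, 1.48 ± 1.48 and 2.58 ± 2.22, and MCM2 at 1.26 ± 1.05, 1.35 ± 1.30, 1.69 ± 1.38, 0.66 ± 0.85 and 1.59 ± 1.78. MCM2 and MCM3 were below control past the limit with paclitaxel and in cele16h, and within it in Cele2h and in PacCele16h. MCM5 followed the same calls at 1.08 ± 1.18, 1.28 ± 1.32, 1.72 ± 1.20, 0.83 ± 1.08 and 2.15 ± 1.94, its mean in PacCele16h being 0.24 above control.

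Of the loading factors, CDC6 was below control past the limit in all 5 treated conditions. Its means were 0.98 ± 1.08 and 1.18 ± 1.41 with paclitaxel, 1.19 ± 1.30 and 0.43 ± 0.84 with celecoxib and 1.32 ± 1.75 in PacCele16h. The median cell had no CDC6 detected in cele16h and in PacCele16h, and in cele16h the mean N of 7.06 was 6.39 times below the 45.2 of control cells. CDT1, its partner in loading, was within the limit in every treated condition, at 0.37 ± 0.64, 0.44 ± 0.84, 0.66 ± 0.87, 0.39 ± 0.70 and 0.87 ± 1.26. Its low level leaves little room on this scale, where changes of rare transcripts look smaller than they are. In linear terms its mean N was 13.1 in control cells and 4.60 in Pac16h, 2.85 times lower.

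GMNN, the inhibitor of loading, and PCNA, the clamp, were below control past the limit in all 5 treated conditions. GMNN was at 3.42 ± 1.89 and 3.18 ± 1.83 with paclitaxel, 3.12 ± 1.86 and 2.21 ± 1.74 with celecoxib and 4.04 ± 2.19 in PacCele16h. PCNA was at 4.35 ± 2.01, 4.32 ± 1.88, 4.16 ± 2.16, 3.25 ± 1.64 and 4.29 ± 2.62. The ratio of mean N of GMNN to that of its target CDT1 was 31.1 in control cells, 42.7 and 23.1 in Pac16h and Pac48h, 15.7 and 15.6 in Cele2h and cele16h and 17.8 in PacCele16h. CDT1 had a low mean N of 4.60 to 18.8 and was detected in 30.2% to 55.6% of cells. The ratio thus rests on the cells that had CDT1, and its spread was not computed.

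Most of the 10 genes were lower in Pac16h, as were many other genes, and the median abundance of these cells was 0.504 times that of control cells. Past the limit, 9 of the 10 were lower and 0 higher, against 37.3% of all genes lower and 0.0932% higher. The median difference was -0.94 for the 10 genes and -0.41 for all 9655. With all cells at the same total 4 were still lower, MCM4 (-1.17), MCM7 (-1.04), GMNN (-0.94) and CDC6 (-0.71), beside 11.7% of all genes lower and 1.62% higher. On that scale MCM3 (-0.08) and MCM6 (-0.25) were close to the control mean.

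In Pac48h, as in Pac16h, 9 of the 10 genes were lower on the deposited scale and 0 higher, against 26.6% and 0.922% of all genes, with medians of -1.09 and -0.26. The same total left 7 lower, GMNN (-1.32), MCM7 (-1.26), MCM4 (-1.14), MCM6 (-0.94), MCM3 (-0.67), PCNA (-0.60) and CDC6 (-0.59), against 6.96% of all genes lower and 4.03% higher. The means of MCM3 and MCM6 were lower at 48 h than at 16 h, while that of CDC6 was higher, 1.18 against 0.98. Blocks of 96 library indices were derived here from the S number that ends each cell's description. The labels do not name such blocks, and whether they mark a plate or a sequencing run is not stated. By that count these cells came from 2 blocks. In the 31 cells of the block that also held the control cells, 6 of the 10 genes were lower past the limit, beside 22.5% of all genes.

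In Cele2h the largest differences in mean E-value were those of the genes with the highest control means, which this scale compresses least. GMNN differed from control by -1.88, MCM7 by -1.56 and PCNA by -1.32, followed by MCM4 (-0.93), CDC6 (-0.84) and MCM6 (-0.74), which made 6 lower and 0 higher past the limit, beside 25.7% and 1.12% of all genes. On the other scale, at the same total, GMNN (-1.45), MCM7 (-1.06) and PCNA (-0.85) were the 3 lower, against 9.53% of all genes lower and 3.78% higher. MCM2 (-0.03), MCM3 (-0.09), MCM5 (0.15) and CDT1 (0.09) were close to control on that scale. In linear terms mean N was 2.64 times lower for GMNN, 2.59 for MCM7, 1.88 for MCM4 and 1.75 for CDC6, but 1.51 for PCNA. Linear means at the same total put GMNN at -0.94, MCM7 at -0.75 and PCNA at -0.11.

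In cele16h 9 of the 10 genes had their lowest mean. The deposited scale gave 9 lower and 0 higher, against 43.9% and 0.383% of all genes, with a median of -1.63 for the 10 genes and -0.48 for all genes. At the same total 8 were lower, beside 9.05% of all genes lower and 8.31% higher: MCM7 (-1.99), GMNN (-1.88), MCM6 (-1.35), CDC6 (-1.23), PCNA (-1.04), MCM4 (-1.02), MCM2 (-0.88) and MCM3 (-0.61). MCM7 and GMNN ranked 16th and 20th from the lowest of the 9655 differences on that scale, which compresses genes with high control means least. Linear means at the same total left 5 lower, CDC6 (-1.35), MCM7 (-1.21), GMNN (-1.01), MCM6 (-0.94) and MCM2 (-0.93). PCNA (-0.56), MCM4 (-0.54) and MCM3 (-0.13) were then within the limit.

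**Figure D2:**
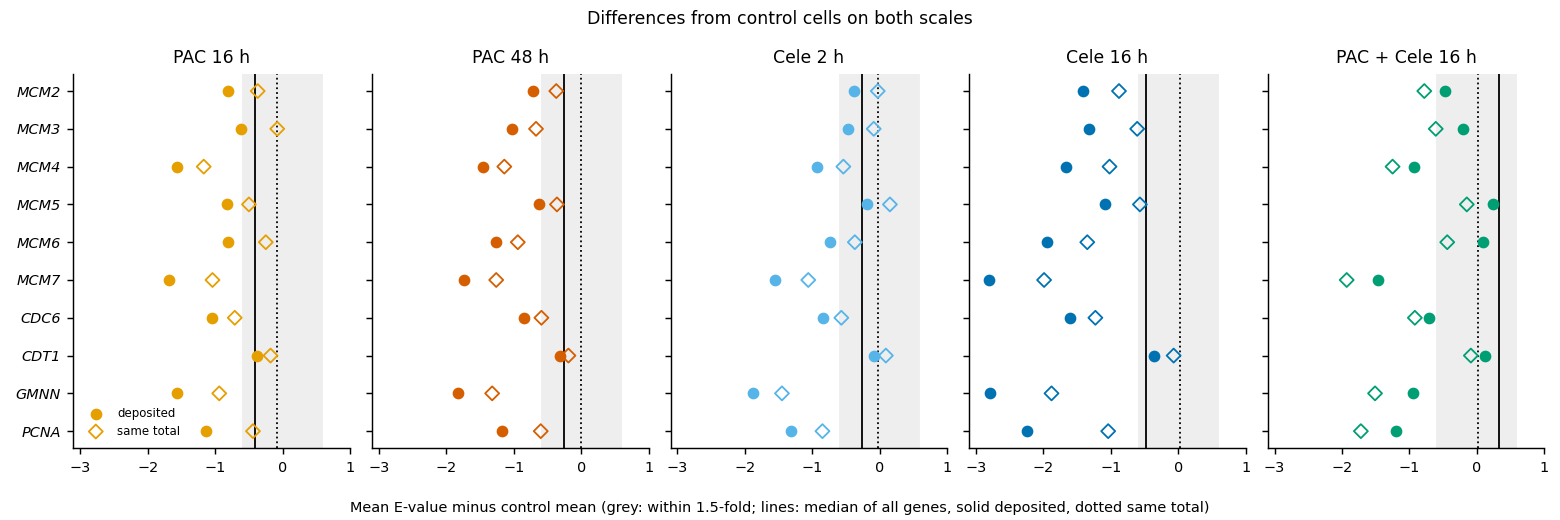
Difference in mean E-value from control cells (x axis, log2 scale) for the 10 genes (y axis) in each treated condition, on the deposited scale (filled circles) and at the same total per cell (open diamonds), with the medians of all genes as solid and dotted lines and differences within 1.5-fold in grey. In PacCele16h the 10 genes lie left of the deposited median of 0.33, from MCM7 at -1.46 to MCM5 at 0.24.

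In PacCele16h the median gene was above its control mean, and none of the 10 genes was higher past the limit. Past the limit 30.4% of all genes were higher and 1.76% lower, that is 170 of 9655, whereas 0 of the 10 genes were higher and 5 were lower: MCM7 (-1.46), PCNA (-1.20), GMNN (-0.95), MCM4 (-0.93) and CDC6 (-0.71). The median difference was -0.60 for the 10 genes and 0.33 for all genes. MCM7 ranked 10th, PCNA 21st, GMNN 47th and MCM4 50th from the lowest of all genes. Rescaled to the same total, 7 were lower, the same 5 with MCM2 (-0.78) and MCM3 (-0.61), beside 6.79% of all genes lower and 7.05% higher.

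On the deposited scale that result rests on how cells are averaged. Mean N, the linear average, was 566 for PCNA in PacCele16h and 562 in control cells, 45.1 and 45.2 for CDC6, 87.2 and 90.8 for MCM4, 335 and 407 for GMNN and 237 and 353 for MCM7, so that on linear means none of the 10 genes was lower past the limit, beside 1.34% of all genes, and MCM5 (85.0 against 44.2) was higher, beside 72.2%. Linear means at the same total, in contrast, left 6 of the 10 lower, MCM7 (-1.40), GMNN (-1.15), MCM4 (-1.06), PCNA (-0.98), CDC6 (-0.97) and MCM2 (-0.66), beside 10.5% of all genes. Medians over cells of the deposited E-values gave 6 lower as well, beside 7.08% of all genes. A mean of log values gives more weight to cells at 0, and there were more of them in PacCele16h. The combination cells also came from 2 blocks of library indices that differed. In block 1 (34 cells) MCM7 (-1.24) and MCM4 (-0.68) were lower past the limit, beside 1.55% of all genes, and in block 3 (25 cells) 7 of the 10 genes were, beside 3.44%, with PCNA at -2.16 and GMNN at -1.71 against -0.49 and -0.39 in block 1. Median abundance was 1.56 times the control median in block 1 and 1.30 times in block 3, and the medians of genes detected were 6190 and 6129. Control cells were all in block 4, so that block and condition cannot be told apart in that comparison. The same holds for Pac16h (all in block 1), Cele2h (block 2) and cele16h (block 3) against control.

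The combination was also set against each drug alone at 16 h. Against paclitaxel, MCM5 (1.07), MCM6 (0.90), MCM4 (0.63) and GMNN (0.62) were higher past the limit and 0 lower, beside 62.5% of all genes higher and 0.0311% lower. PCNA differed by -0.06, which ranked 88th from the lowest of 9655 genes. Against celecoxib, 9 were higher and 0 lower, with MCM6 (2.03) and GMNN (1.84) in the lead, beside 66.0% of all genes higher and 0.0414% lower. The same total gave another picture. PCNA (-1.28) and MCM7 (-0.89) were then lower against paclitaxel with 0 higher, beside 11.6% of all genes higher and 1.95% lower. Against celecoxib MCM6 (0.91) was higher and PCNA (-0.68) lower, beside 6.03% and 5.22% of all genes. Block 1 also held the Pac16h cells and block 3 the cele16h cells. Within block 1, 9 of the 10 genes were higher in PacCele16h than with paclitaxel on the deposited scale, beside 63.3% of all genes. Within block 3, 5 were higher than with celecoxib, beside 63.9% of all genes. These comparisons share their cells with those against control.

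The share of cells in which a gene was detected, at an E-value above 0, was described apart from the level in the cells that had it. CDC6 was detected in 80.4% of control cells (exact Clopper-Pearson 95% interval 66.1 to 90.6), in 31.1% in cele16h (19.9 to 44.3) and in 39.0% in PacCele16h (26.5 to 52.6). MCM4 was detected in 95.7% of control cells (85.2 to 99.5), 55.7% in cele16h (42.4 to 68.5) and 61.0% in PacCele16h (47.4 to 73.5). MCM2 went from 87.0% (73.7 to 95.1) to 54.1% (40.8 to 66.9) and 57.6% (44.1 to 70.4). These intervals cover counting error only and say nothing of the spread between runs.

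The median change in detection was further below 0 for the 10 genes than for all genes in each treated condition. In PacCele16h the change ran from -41.5 percentage points for CDC6 to -6.41 for CDT1, with a median of -20.1 against -1.69 for all genes. In cele16h the median was -26.5 against -3.06, in Pac48h -18.2 against -1.89, in Cele2h -10.6 against -2.83, and in Pac16h -6.25 against -2.95. MCM6 (3.34 points in Pac16h) and CDT1 (3.38 points in Cele2h) were detected in a larger share of cells than in control. Across genes, CDC6 had the 7th lowest change of 9655 in cele16h and the 19th lowest in PacCele16h.

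Among the cells that had the gene, the mean E-value in PacCele16h was above that of control cells for 7 of the 10 genes, with MCM5 (0.92), CDC6 (0.85) and MCM3 (0.70) past the limit, beside 59.4% of all genes. The median of all genes in this measure was 0.69, so that the 10 genes, with a median of 0.37, were not above it. MCM7 (-0.45), PCNA (-0.34) and GMNN (-0.14) were below control also in the cells that had them. In the conditions with 1 drug the means over such cells were mostly lower, with medians of -0.94 and -0.60 in Pac16h and Pac48h and -0.50 and -1.15 in Cele2h and cele16h. These means are taken over different cells for each gene.

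**Figure D3:**
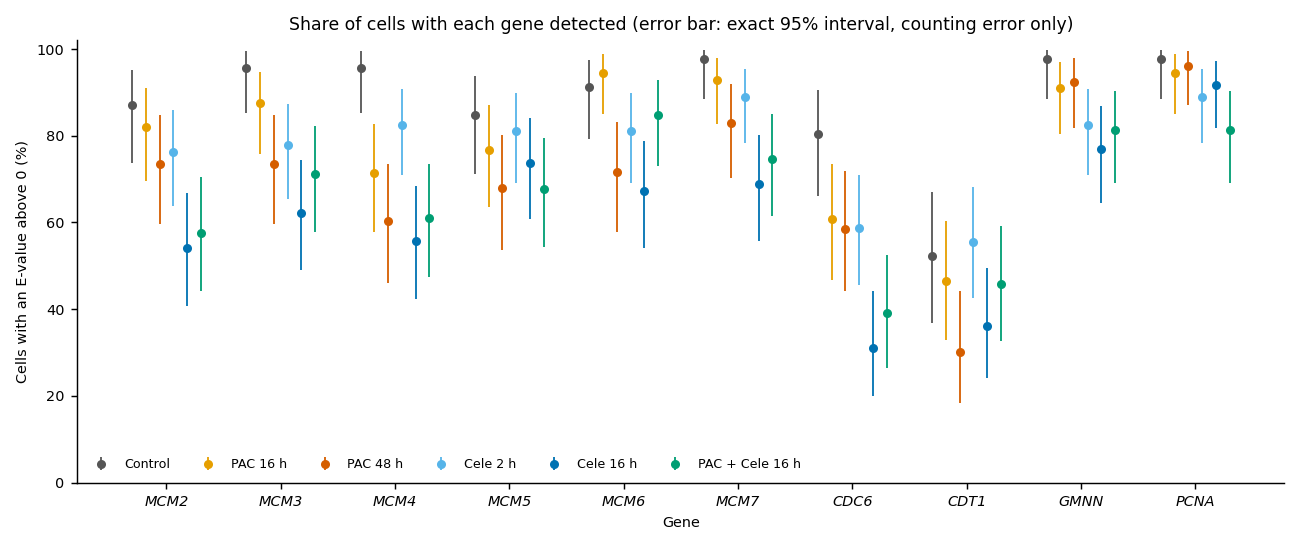
Share of cells with an E-value above 0 (y axis, percent) for each of the 10 genes (x axis) in the 6 conditions, with exact 95% intervals as error bars. CDC6 lies at 80.4% in control cells and at 31.1% and 39.0% in cele16h and in PacCele16h, while PCNA is at 81.4% or more in all 6 conditions.

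In many treated cells several of the 10 genes were undetected, while over all genes and cells 34.9% of values were 0. Whether these genes were missing together more often than their own detection shares would give was not tested. The median cell had 9 of the 10 genes detected in control, 8 and 7 in Pac16h and Pac48h, 9 and 6 in Cele2h and cele16h and 6 in PacCele16h. Cells with at most 5 genes, a limit set after the values were seen, made up 4.35% of control cells (2 of 46, interval 0.531 to 14.8), 8.93% of Pac16h cells (2.96 to 19.6) and 30.2% of Pac48h cells (18.3 to 44.3). Among Cele2h cells they were 22.2% (12.7 to 34.5), among cele16h cells 45.9% (33.1 to 59.2) and among PacCele16h cells 37.3% (25.0 to 50.9). All 10 genes were detected in 41.3% of control cells, 26.8% and 26.4% in Pac16h and Pac48h, 31.7% and 11.5% in Cele2h and cele16h and 23.7% in PacCele16h. Every condition thus held both kinds of cell. In index blocks 1 and 3 of PacCele16h the share with at most 5 was 26.5% and 52.0%. The authors' removal of cells was uneven, with 46 of 57 labelled control cells, 56 of 58 in Pac16h and 53 of 65 in Pac48h kept. In Cele2h 63 of 66 were kept, in cele16h 61 of 67 and in PacCele16h 59 of 59. How that removal bears on these shares was not tested.

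The number of the 10 genes detected was correlated with the number of all genes detected in a cell, with Pearson's r between 0.55 and 0.64 over the cells of a condition. Among cells with 5500 to 7000 genes detected, a range chosen after seeing the data, the share with at most 5 of the 10 genes was 2.78% in control, 4.88% and 29.5% in Pac16h and Pac48h, 17.4% and 46.0% in Cele2h and cele16h and 41.9% in PacCele16h. The order of the conditions was therefore the same in cells of middle depth.

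**Figure D4:**
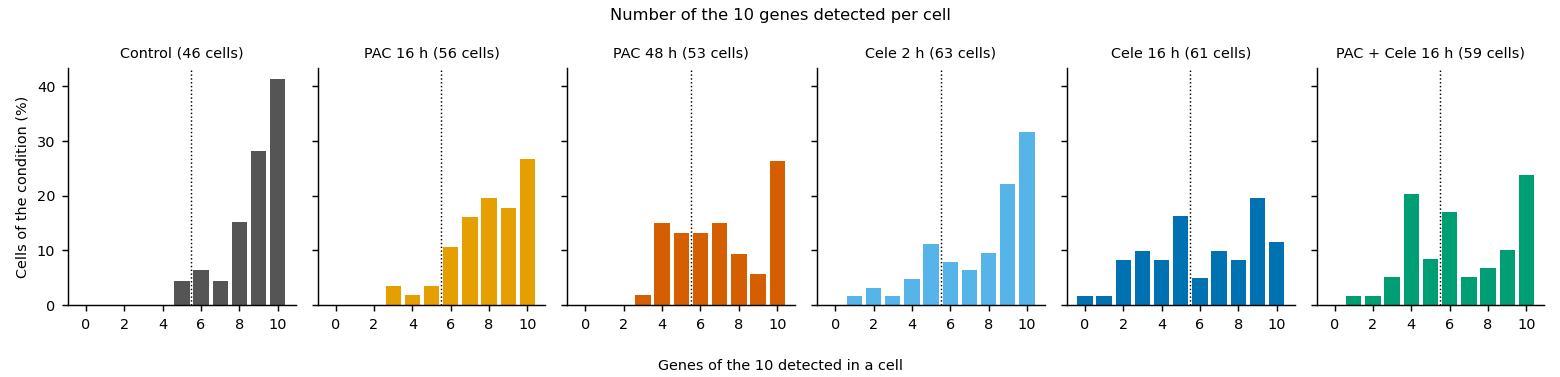
Number of the 10 genes detected in a cell (x axis) against the share of the cells of each condition (y axis, percent), with a dotted line between 5 and 6 genes. Control cells sit at 5 to 10 genes, and cells of the 5 treated conditions reach from 3 genes or fewer to all 10.

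The authors' deposited annotation places each cell in a state, called control, suppressive or activation, by a random forest on gene expression, which may include these 10, so the values by state are only a description. In Pac16h the 23 cells in the control state had a median over the 10 mean E-values of 2.18, and the 31 suppressive cells of 1.29. At 48 h these medians were 2.20 (28 cells) and 0.87 (25 cells), with 9 and 5 of the 10 genes in the median cell. The cells in the control state at 48 h were still below the 45 such control cells, whose median was 2.89. Rescaled to the same total, the 48 h medians were 2.22 and 1.15 and that of the control cells 2.67. CDC6 was at 1.72 in the control state and 0.57 in the suppressive state at 48 h, and MCM4 at 2.13 and 0.61.

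Pairs of the 10 genes were mostly positively correlated from cell to cell. With every cell at the same total, the median Pearson's r over the 15 pairs of MCM2 to MCM7 was 0.18 in control cells, 0.29 and 0.43 in Pac16h and Pac48h, 0.34 and 0.45 in Cele2h and cele16h and 0.40 in PacCele16h (46 to 63 cells). Of all 45 pairs of the 10 genes, 41 were positive in control cells, 43 in Pac16h and 45 in each of the other 4 conditions. The share of positive pairs among other genes was not computed, so whether these counts are particular to the 10 genes was not tested. The pair with the highest r was MCM4 and CDC6 in PacCele16h, at 0.68. CDT1 and GMNN, the factor and its inhibitor, were positively correlated in all 6 conditions (0.25 to 0.44). The points share a library run and differ in depth, and with the deposited values the MCM medians were higher, from 0.32 to 0.53.

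All 10 genes had a higher r with S phase genes than with G2/M genes, by differing margins. The mean E-value of 35 S genes from the list of Seurat, without these 10, had a higher r with the gene than the mean of 54 G2/M genes in all 60 pairs of a gene and a condition. The full S list holds 7 of the 10 genes, so a closer tie to the rest of it was partly given beforehand. Some values were low or close, as for MCM5 in control cells (0.06 with S genes, -0.06 with G2/M genes) and GMNN in Pac48h (0.53 and 0.51). The medians of these 60 values were 0.58 for S genes and 0.30 for G2/M genes. PCNA (0.68), MCM7 (0.65) and CDC6 (0.64) had the highest medians over conditions with S genes, and GMNN had the highest with G2/M genes, at 0.47. The S gene mean itself, at the same total, was 2.46 ± 0.55 in control cells, 2.10 ± 0.70 and 1.91 ± 0.84 in Pac16h and Pac48h, 2.09 ± 0.90 and 1.83 ± 0.85 in Cele2h and cele16h and 1.84 ± 0.74 in PacCele16h. The G2/M mean was 2.96 ± 0.92 in control cells and between 2.02 and 2.52 in the others, so that both phase lists were lower in the treated cells along with the 10 genes.

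The genes whose E-values were most like the mean of MCM2 to MCM7 over cells were GINS2 (mean r over the 6 conditions 0.66), FEN1 (0.59), CLSPN (0.58), PSMC3IP (0.57), CDC45 (0.57), TK1 (0.55), RFC4 (0.55) and DTL (0.54), the 8 highest of the 7561 other genes that at least 30% of cells had in every condition, whose median was 0.04. GINS2 and CDC45 encode parts of the active helicase, FEN1 the flap nuclease of Okazaki fragments, CLSPN a fork checkpoint protein, RFC4 a subunit of the loader of PCNA, TK1 thymidine kinase and DTL a factor that targets CDT1 for degradation. For comparison, CDC6 and PCNA had a mean r of 0.56 with MCM2 to MCM7 and each MCM subunit one of 0.40 to 0.55 with the other 5.

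**Figure D5:**
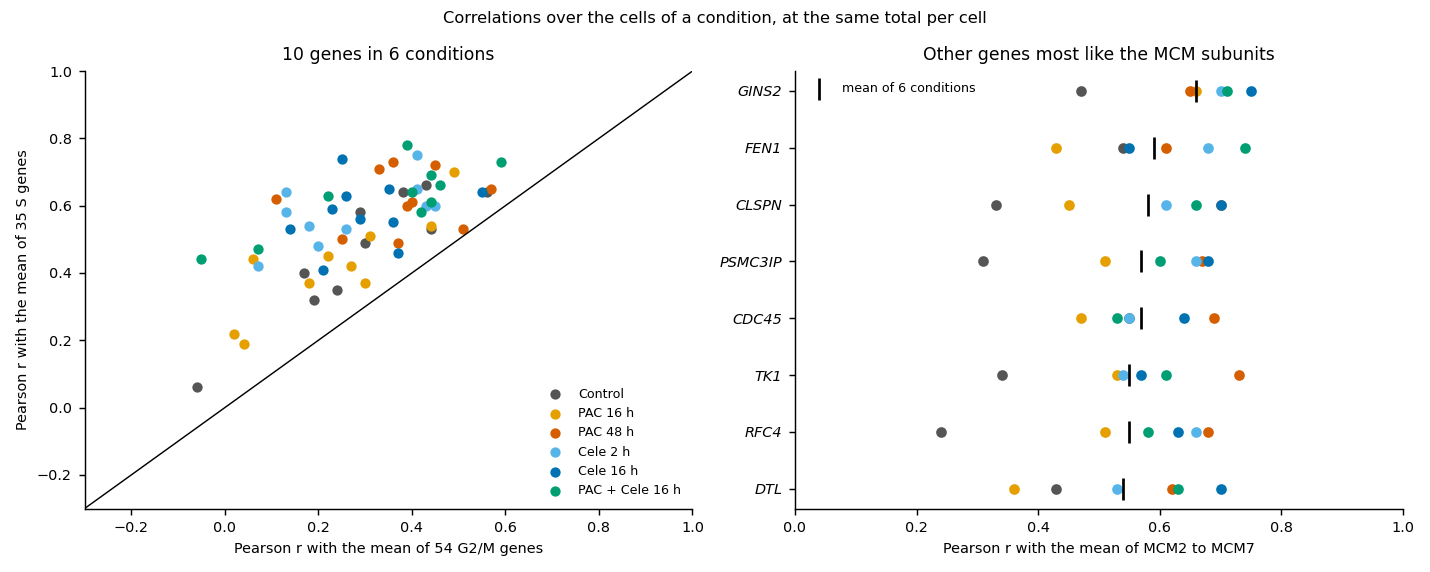
Left, Pearson's r of each of the 10 genes with the mean of the S genes (y axis) against its r with the mean of the G2/M genes (x axis), 1 point for a gene in a condition, all above the line of equal values. Right, r with the mean of MCM2 to MCM7 (x axis) in each condition for the 8 genes most like it, from GINS2 (mean 0.66) to DTL (mean 0.54).

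The rest of the replication machinery was counted in fixed lists, each read against the shares of all genes given above (37.3%, 26.6%, 25.7%, 43.9% and 1.76% lower in Pac16h, Pac48h, Cele2h, cele16h and PacCele16h, with 30.4% higher in PacCele16h). At the same total those shares were 11.7%, 6.96%, 9.53%, 9.05% and 6.79% lower. Of 23 other genes of origin licensing and firing that were measured, such as ORC subunits, GINS subunits and CDC7, 10 were lower past the limit in each of Pac16h, Pac48h and Cele2h, 14 in cele16h and 3 in PacCele16h, where 2 were higher. As shares of the list these were 43.5%, 43.5%, 43.5% and 60.9% lower with single drugs, in Pac16h close to the share of all genes, and 13.0% lower and 8.70% higher in PacCele16h. The numbers lower at the same total were 4, 6, 7, 7 and 4, and 0 were higher. Of 38 genes of the replication fork, 18, 24, 15 and 32 were lower with single drugs in the same order and 4 in PacCele16h, where 3 were higher. These shares were 47.4%, 63.2%, 39.5%, 84.2% and 10.5% lower, with 7.89% higher in PacCele16h. In Pac48h 1 fork gene, POLD4, was higher. The same total left 10, 11, 3, 20 and 10 fork genes lower, with 1 higher in Pac16h and 1 in Pac48h. The median difference of both lists was closer to 0 than that of the 10 genes in every treated condition, at -0.78 and -1.19 in cele16h and 0.02 and 0.03 in PacCele16h.

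Within these lists, GINS2, a subunit of the active helicase, had among the largest drops: from a control mean of 3.51 ± 1.31 by -1.64 in Pac48h, -1.23 and -2.40 in Cele2h and cele16h and -1.26 in PacCele16h. PCLAF, a PCNA-binding factor, differed by -2.48 in cele16h. CDC45 differed by -1.56 in Pac48h and -1.13 in PacCele16h, and RFC5, a subunit of the clamp loader, by -1.51 in Pac16h and -1.43 in Cele2h. RPA2, of the single-strand binding complex, differed by -1.41 in Pac16h. POLD4, the small subunit of DNA polymerase delta, was an exception, 0.71 above control in Pac48h (1.01 at the same total) and 0.94 above in PacCele16h (0.41). RPA3 was 0.93 above control in PacCele16h and 0.26 at the same total. In the other treatments the highest differences of these lists were within the limit and some were below 0. MTBP differed by -0.05 in Pac16h and -0.08 in Pac48h, ATAD5 by 0.17 in Cele2h and DBF4B by -0.31 in cele16h, and POLD4 by -0.07, 0.19 and -0.27 in Pac16h, Cele2h and cele16h.

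Genes that control licensing and supply nucleotides were also counted. Of all genes, 37.3%, 26.6%, 25.7% and 43.9% were lower with single drugs and 1.76% in PacCele16h. At the same total these shares were 11.7%, 6.96%, 9.53%, 9.05% and 6.79%. Of 22 control genes, among them cyclins E and A, CDK2, E2F factors and SKP2, 11, 11, 9 and 16 were lower past the limit with single drugs, and 1 was lower and 3 were higher in PacCele16h. As shares of the list these were 50.0%, 50.0%, 40.9% and 72.7% lower, and 4.55% lower and 13.6% higher in PacCele16h, the last below the 30.4% of all genes. Their numbers lower at the same total were 7, 3, 5, 3 and 3. Of 13 genes of deoxynucleotide synthesis, 9, 9, 8 and 11 were lower with single drugs and 3 in PacCele16h, that is 69.2%, 69.2%, 61.5%, 84.6% and 23.1% of them, with a median difference of -1.92 in cele16h, and at the same total 5, 6, 7, 9 and 6 were. Of 15 mitotic cyclins and kinases 11, 11, 11 and 13 were lower with single drugs (73.3% to 86.7%) and 10 in PacCele16h (66.7%), with medians of -1.27, -1.82, -1.48, -1.93 and -1.06, and at the same total 10, 10, 10, 11 and 10 were lower. Of 9 p53 target and arrest genes, 0 were higher and 2 lower in Pac16h, 2 and 0 in Pac48h, 1 and 3 in Cele2h, 2 and 3 in cele16h and 2 and 0 in PacCele16h, beside shares of all genes higher of 0.0932%, 0.922%, 1.12%, 0.383% and 30.4%. At the same total 1 was higher and 1 lower in Pac16h, and 6, 1, 3 and 1 were higher with 0 lower in the other treatments, beside 1.62%, 4.03%, 3.78%, 8.31% and 7.05% of all genes higher. The lists overlap in part, as CCNA2 is in more than 1 of them.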

How the data were processed

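The authors trimmed reads with Trim Galore, quantified them with RSEM 1.3.0 and Bowtie2 on GENCODE transcripts of hg38 with spike-in sequences, divided the TPM of each gene by the highest spike-in of the cell relative to the mean of that spike-in over cells, and removed 34 cells with few housekeeping genes detected. What they deposited is the log2 value E = log2(N/10 + 1), written to 3 decimals, for 9664 genes and 338 cells. Depth in reads is unknown, so no interval that needs it is given, and no doublet caller was run.

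N was recovered from E. Means over the cells of a condition were compared, with a limit of 1.5-fold and no test. The same total per cell was obtained by scaling N to the mean total of all cells. Detection means E above 0. Pearson's r is a description over cells. The 10 genes, all named, and the lists were chosen with earlier results of these data known. Other genes were named by rule: the 2 largest rises and falls of the origin and fork lists in each treatment, if 30% or more of the cells in each group had them, and the 8 genes most like the MCM mean. Comparisons against control share the same control cells. The steps were tested on simulated data. Alternatives were linear means, an offset of 1, medians, detected cells only, and each block of 96 library indices alone. The work was done in Python 3.11.15 with matplotlib 3.10.9, numpy 2.4.6, scipy 1.17.1 and pandas 2.3.3.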

Additional observations from a re-analysis of the deposited data

Results flagged for a closer look

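For 4 of the 10 genes, 16 h of celecoxib went with a lower mean E-value in cells without paclitaxel and a higher one in cells with it, both past the limit. The change with paclitaxel minus the change without it was 2.29 for MCM4, 2.15 for MCM5, 2.85 for MCM6 and 3.41 for GMNN. MCM6, for example, differed by -1.94 from control cells with celecoxib alone and by 0.90 from paclitaxel cells in PacCele16h. With 1 capture run for each condition this difference was not tested. The same pattern was found in 37.6% of all 9655 genes. At the same total per cell none of the 10 genes was opposite with both changes past the limit, and the changes without and with paclitaxel were -1.35 and -0.19 for MCM6, -1.88 and -0.56 for GMNN, -1.02 and -0.08 for MCM4 and -0.57 and 0.35 for MCM5.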

How the results depend on the processing

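The 10 genes gave 570 differences under the alternatives, of which 483 kept their direction and moved by less than 1 SD over cells, 20 kept it and moved by more, and 67 turned their direction. Of the 67, 18 were past the limit as first computed and 49 within it. The cause was not tested, except where the construction of an alternative gives it.

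With all cells at the same total, 15 differences turned, and 4 genes lay below control past the limit in Pac16h and 3 in Cele2h. In PacCele16h against paclitaxel 0 were then higher and 2 lower, and MCM2 (-0.41), MCM3 (-0.53), MCM4 (-0.08), MCM6 (-0.19), MCM7 (-0.89), CDC6 (-0.21) and GMNN (-0.56) turned lower. Against celecoxib 1 was higher and 1 lower, and MCM4 (-0.23), PCNA (-0.68) and CDT1 (-0.01) turned lower. MCM5, MCM6 and CDT1 turned lower than control in PacCele16h (-0.15, -0.44 and -0.09), and MCM5 (0.15) and CDT1 (0.09) higher in Cele2h. With linear means as well, 21 turned. Then 3 genes were lower than control in Pac16h, where PCNA (0.06) turned higher, 5 in Pac48h, 2 in Cele2h, 5 in cele16h and 6 in PacCele16h. In PacCele16h against paclitaxel this gave 0 higher and 2 lower, and of the genes past the limit MCM4 (0.00), MCM6 (-0.15) and GMNN (-0.67) turned. Against celecoxib it gave 1 higher, and of those past the limit MCM3 (-0.18), MCM4 (-0.52), MCM7 (-0.19), GMNN (-0.14) and PCNA (-0.43) turned.

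Linear means on the deposited scale gave 0 lower and 1 higher in PacCele16h against control, where MCM2 (0.29), MCM3 (0.51) and PCNA (0.01) turned, and 9 higher against paclitaxel. In detected cells only, 5 were lower in Pac48h, and in PacCele16h 0 were lower and 3 higher than control, with MCM2 (0.37), MCM3 (0.70), MCM4 (0.18) and CDC6 (0.85) turned, and 10 were higher than with paclitaxel. Index block 1 alone gave 2 lower than control and 9 higher than paclitaxel. Index block 3 alone gave 2 higher and 1 lower against paclitaxel, with MCM2 (-0.19), MCM3 (-0.08), MCM7 (-0.06), CDC6 (-0.01) and GMNN (-0.14) turned, and 5 higher against celecoxib. An offset of 1 turned 5 differences, medians over cells 4 and cells of middle depth, an alternative added after seeing the data, 2, all of them within the limit as first computed. Among these were MCM5 in PacCele16h against control (-0.14 with the offset) and, against paclitaxel, MCM7 (-0.25 with the offset, -0.10 at middle depth), MCM2 (-0.54 by medians) and CDC6 (-0.36 by medians). No paired analysis was possible because cells of different conditions share no number and the result comes from no test.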
